A study of Mus musculus with 6 samples.

Results

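The genes described here encode the constitutive proteasome: the subunits of the protease and its caps, their activators and inhibitor, and the chaperones that assemble them. They were taken by symbol, as every Psma, Psmb, Psmc, Psmd, Psme, Psmf and Psmg gene followed by a number, leaving out Psmb8, Psmb9, Psmb10 and Psmb11, the inducible and thymic subunits. This gave 44 of the 15643 genes in the deposited table. They were 7 genes of the alpha ring, 7 of the beta ring, 6 ATPases of the cap, 11 other cap subunits, 6 activator and inhibitor genes, 6 assembly chaperones and Psmc3ip. Psmc3ip shares the symbol pattern but encodes a meiotic recombination factor and no proteasome subunit. Psma8 and Psmd9 were not analysed here. The samples were mature medullary thymic epithelial cells (mTEChi) sorted from the thymi of NOD mice, a strain prone to autoimmune diabetes, at an age of 4.5 weeks. There were 3 Aire+/+ libraries (745, 750 and 753) and 3 Aire-/- libraries (746, 748 and 749), with no other allele or agent named. Nothing in the labels ties a library number to a single animal or names the deleted part of Aire, so the p-values speak only of spread among libraries, which may be technical. The comparison asks which transcripts differ in these cells when Aire, a regulator of peripheral-tissue gene expression, is lost.

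The proteasome degrades proteins that carry chains of ubiquitin. Its core is a barrel in which rings of alpha subunits gate the entrance and rings of beta subunits hold the cutting sites. A cap made of ATPases and other subunits binds ubiquitin chains, unfolds the substrate and feeds it into the barrel. The peptides it releases supply MHC class I molecules, and in medullary epithelium they are among the self peptides shown to developing T cells. Under interferon, and constitutively in many immune cells, inducible subunits replace the cutting subunits of newly built cores. Cortical thymic epithelium uses a further catalytic subunit of its own, encoded by Psmb11.

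Expression was measured by MARS-seq, a method that tags transcript 3′ ends with molecular barcodes (UMIs), so that molecules and not amplified copies are counted. Library totals ran from 2736932 to 2887321 UMIs in Aire+/+ and from 1014581 to 1960802 in Aire-/-. Aire transcripts were present in every library and rose in Aire-/- (log2 fold change 1.10, edgeR adjusted p = 7.76e-05). A 3′ tag outside the deleted part checks nothing about the genotype, so directions here rest on the labels. Some libraries stood apart. Gapdh had 90 UMIs in 753 and 28 in 746 but 2245 to 4166 in the other 4. The 6 measured dendritic cell and macrophage markers summed to 2396 CPM (UMIs scaled to a common library size) in 749, 1460 and 1468 in the other Aire-/- libraries and 1224 to 1321 in Aire+/+, with 1 lower and 1 higher. The 7 measured fibroblast and endothelial markers summed to 348 CPM in 746, 66.6 and 111 in the other Aire-/- libraries and 60.8 to 80.02 in Aire+/+, with 1 higher. Of the 10 markers of the sorted cells all were detected and 6 rose: Cd74, H2-Aa, H2-Ab1, Cd80, Cd86 and Aire itself. The other 4 were not called. Krt5, Krt14 and Fezf2 had log2 fold changes of -0.24, -0.16 and -0.14, and Epcam had 0.0091. All 7 cortical epithelial markers were detected and 6 rose, with sums of 1243 to 1545 CPM in Aire+/+ and 2557 to 2741 in Aire-/-. The 11 measured thymocyte markers summed to 162 to 289 and 176 to 303 CPM, with 0 called (0 at an unadjusted p under 0.05 by edgeR, 0 by DESeq2). The 5 B cell markers summed to 107 to 137 and 96.5 to 196 CPM with 1 higher, and 3 general leukocyte markers to 1124 to 1243 and 1484 to 1634 CPM with 1 higher. No measured marker was at 0 in all libraries. The part of these markers in the values below was not tested.

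With TMM scaling, the main choice here, proteasome transcripts stood at nearly the same summed level in both genotypes, and with library totals they were lower in Aire-/-. Together the 44 genes took 10345, 10168 and 11252 CPM in Aire+/+ and 10147, 10370 and 11577 CPM in Aire-/-. These are means of 10588 ± 582 and 10698 ± 769.5 CPM (SD, n = 3 each). The ranges overlapped, and the log2 ratio of the group means was 0.015. As shares of all UMIs the same genes made up 1.15, 1.08 and 1.16% of the Aire+/+ libraries and 0.974, 0.983 and 1.04% of the Aire-/- libraries. These shares did not overlap, and with library totals the log2 ratio of the means was -0.18. All 44 passed the filter on low counts. By edgeR's quasi-likelihood test with Benjamini-Hochberg adjustment over 11956 tested genes, 2 of the 44 changed at an adjusted p of 0.05: Psmg4, an assembly chaperone, rose and Psmc3ip fell. That is 4.55% of the members, beside 20.7% of all tested genes (12.1% lower and 8.59% higher). By DESeq2 Psmg4 alone was called, beside 15.1% of all genes with an adjusted p. Neither tool called a subunit of the core or the cap. At an unadjusted p under 0.05 there were 11 of the 44, beside 31.5% of all tested genes. The libraries of the 2 genotypes were fully apart for 12 members, 8 lower and 4 higher in Aire-/-, and for 36.5% of all tested genes (20.2% lower, 16.3% higher). The median log2 fold change was -0.075 over the members and -0.023 over all tested genes. In bulk samples fewer cells of a type and less RNA per cell cannot be told apart.

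**Figure D1:**
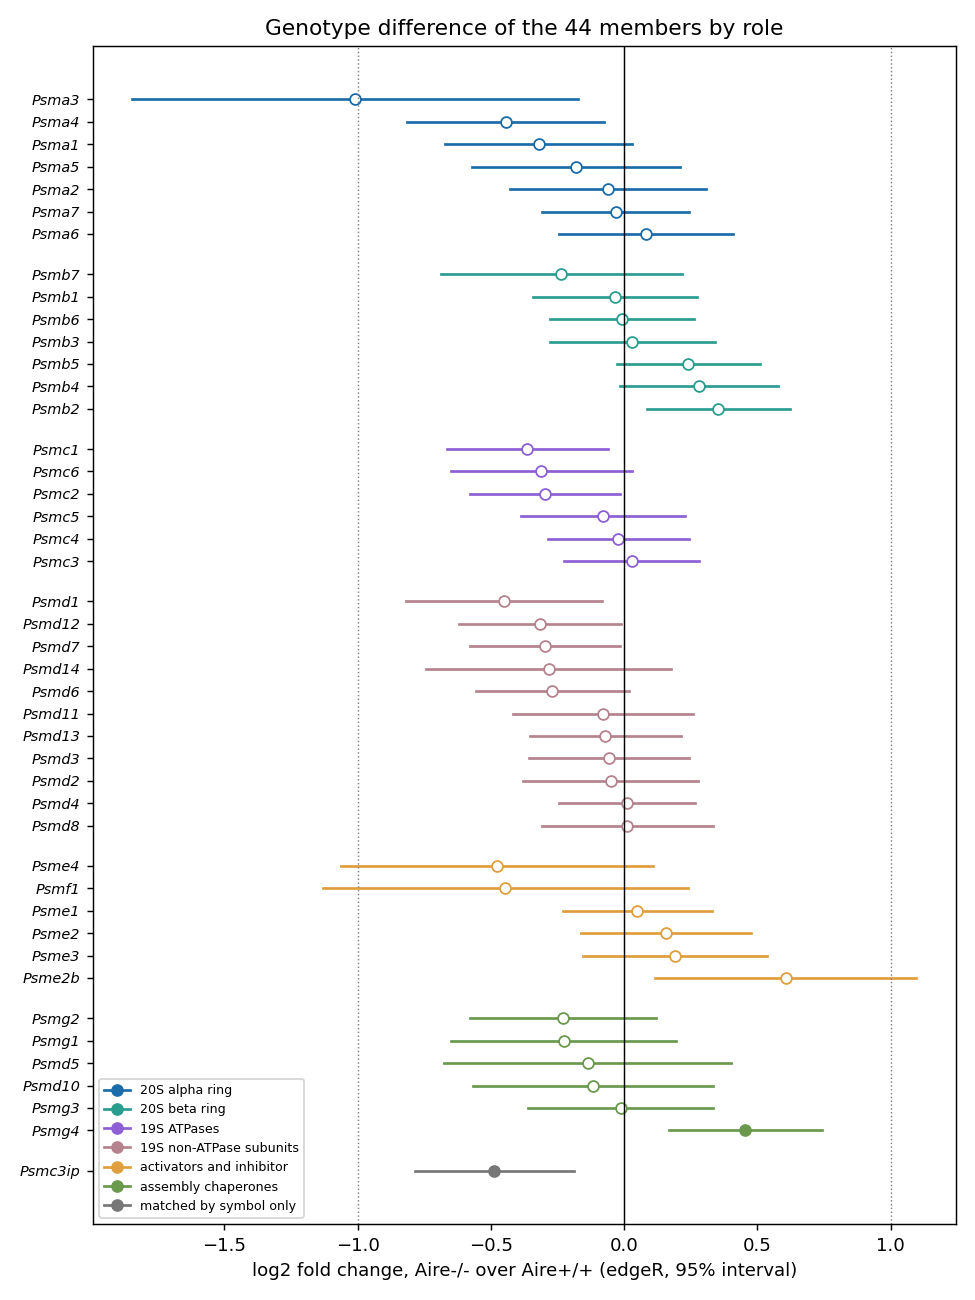
Log2 fold change of Aire-/- over Aire+/+ (x axis, edgeR, dots) with its 95% interval (lines) for each of the 44 genes, coloured by role; filled dots are called at an adjusted p of 0.05, and dotted lines mark 2-fold. The values run from -1.01 (Psma3) to 0.61 (Psme2b), and Psmg4 and Psmc3ip are the called genes.

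The intervals bound the size of the changes. The 95% interval of the log2 fold change lay within 2-fold in either direction for 40 of the 44 genes (90.9%), and within 1.5-fold for 27 of them (61.4%). The same held for 56.4% and 19.4% of all tested genes, whose median standard error was 0.25, against 0.15 for the members. Members and all tested genes were not matched for expression level, on which these shares depend. The intervals of 4 genes reached past 2-fold: Psma3 (-1.85 to -0.17), Psme4 (-1.06 to 0.11), Psmf1 (-1.13 to 0.24) and Psme2b (0.11 to 1.10). With library totals as the only scaling, the median of all tested genes went to -0.22 and that of the members to -0.27, and 11 members (25.0%) were then called lower and 0 higher, beside 17.1% of all tested genes lower (2048) and 4.74% higher (567).

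In the alpha ring, whose subunits form the gate of the core, 0 of 7 genes were called (2 at an unadjusted p under 0.05 by edgeR, 0 by DESeq2). A negative fold change was found for 6 of the 7, beside 6203 of all 11956 tested genes, and the median of the 7 was -0.18. The ring summed to 1423 ± 129 CPM in Aire+/+ and 1335 ± 123 in Aire-/- (SD, n = 3), with overlapping ranges. Psma6 had its most positive value, at 260.4, 211 and 276 CPM in Aire+/+ and 247, 234 and 309 in Aire-/-. The groups overlapped, and the log2 fold change was 0.083 (edgeR adjusted p = 0.758), with the sign turned by library totals (-0.12). Psma4 was at 147, 110.0 and 138 CPM and 86.2, 83.9 and 119 CPM, where 749 alone of the Aire-/- libraries reached the Aire+/+ range. Its log2 fold change was -0.44 (edgeR adjusted p = 0.0883).

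Psma3 had the most negative fold change of all members and the fewest UMIs, 18, 20 and 24 in Aire+/+ and 4, 5 and 6 in Aire-/-. That is 6.86 ± 1.10 against 3.49 ± 0.726 CPM (SD, n = 3). The groups did not overlap, and the log2 fold change was -1.01 ± 0.39 (SE, edgeR adjusted p = 0.087). The gene spans chromosome 12, 70974621 to 70996347 (mm10, plus strand), and overlaps 3110056K07Rik on the minus strand. With library totals the adjusted p was 0.0395 by edgeR.

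The beta ring carries the cutting sites, and its 7 genes summed to 3007 ± 193 CPM in Aire+/+ and 3173 ± 203 CPM in Aire-/- (SD, n = 3). None of the 7 was called (1 at an unadjusted p under 0.05 by edgeR, 0 by DESeq2). Psmb2, Psmb4 and Psmb5 were higher in every Aire-/- library than in any Aire+/+ library. Psmb2, a structural subunit, was at 151, 143 and 141 CPM in Aire+/+ and 175, 186 and 194 in Aire-/-. Its log2 fold change was 0.35 ± 0.12 (SE, edgeR adjusted p = 0.0622), and the adjusted p without 746 was 0.0424. Psmb4, another structural subunit, was at 607, 580.1 and 678 CPM and 854, 730.0 and 684 CPM, a log2 difference of 0.28 (edgeR adjusted p = 0.179).

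None of the 3 constitutive cutting subunits passed the test. Psmb5, with chymotrypsin-like activity, stood at 209, 203 and 233 CPM in Aire+/+ and at 250.5, 244 and 268 CPM in Aire-/-. All Aire-/- values lay above the Aire+/+ range, and the log2 fold change was 0.24 with a 95% interval of -0.028 to 0.51 (edgeR adjusted p = 0.208). Psmb6, with caspase-like activity, was at 653, 628 and 704 CPM against 659, 624 and 692 CPM. The groups overlapped, and the log2 fold change of -0.0073 had an interval of -0.28 to 0.26 (edgeR adjusted p = 0.977). This sign turned in 7 of the 14 alternative settings. Psmb7, with trypsin-like activity, was even in Aire+/+ (200.4, 169.8 and 208 CPM) and uneven in Aire-/-, at 116, 141 and 230.5 CPM in 746, 748 and 749. Here 746 and 748 lay below all Aire+/+ libraries and 749 above them. The log2 fold change was -0.24 (interval -0.69 to 0.22, edgeR adjusted p = 0.485) with 749 and -0.57 without it (edgeR adjusted p = 0.0122). The last 255 bases of Psmb7 overlap Nek6 on the opposite strand, and how strand was counted is not stated. With both genes summed the value was -0.22 (edgeR adjusted p = 0.504).

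Of the inducible counterparts of these cutting subunits none was called. Psmb8, which replaces Psmb5, was at 1121 ± 75.9 and 1195 ± 239 CPM, a log2 difference of 0.093 (edgeR adjusted p = 0.732). Psmb9, which replaces Psmb6, was at 587 ± 38.9 and 536 ± 81.1 CPM, a log2 difference of -0.13 (edgeR adjusted p = 0.576). Psmb10, which replaces Psmb7, was at 1153 ± 79.0 and 1374 ± 108 CPM (log2 difference 0.25, edgeR adjusted p = 0.207), and all its Aire-/- libraries lay above the Aire+/+ ones. Psmb11, the cortical subunit, had 21, 7 and 7 UMIs in Aire+/+ and 13, 24 and 15 in Aire-/-. It rose by 1.58 on the log2 scale (edgeR adjusted p = 0.0196), a call lost without 750, 753 or 748 (adjusted p = 0.079, 0.0906 and 0.0772 by edgeR) and without 753 and 746 together (0.147). It is one of the cortical markers given above. Its 3′ end matches transcripts of at least 388 other genes, so these few counts are uncertain.

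**Figure D2:**
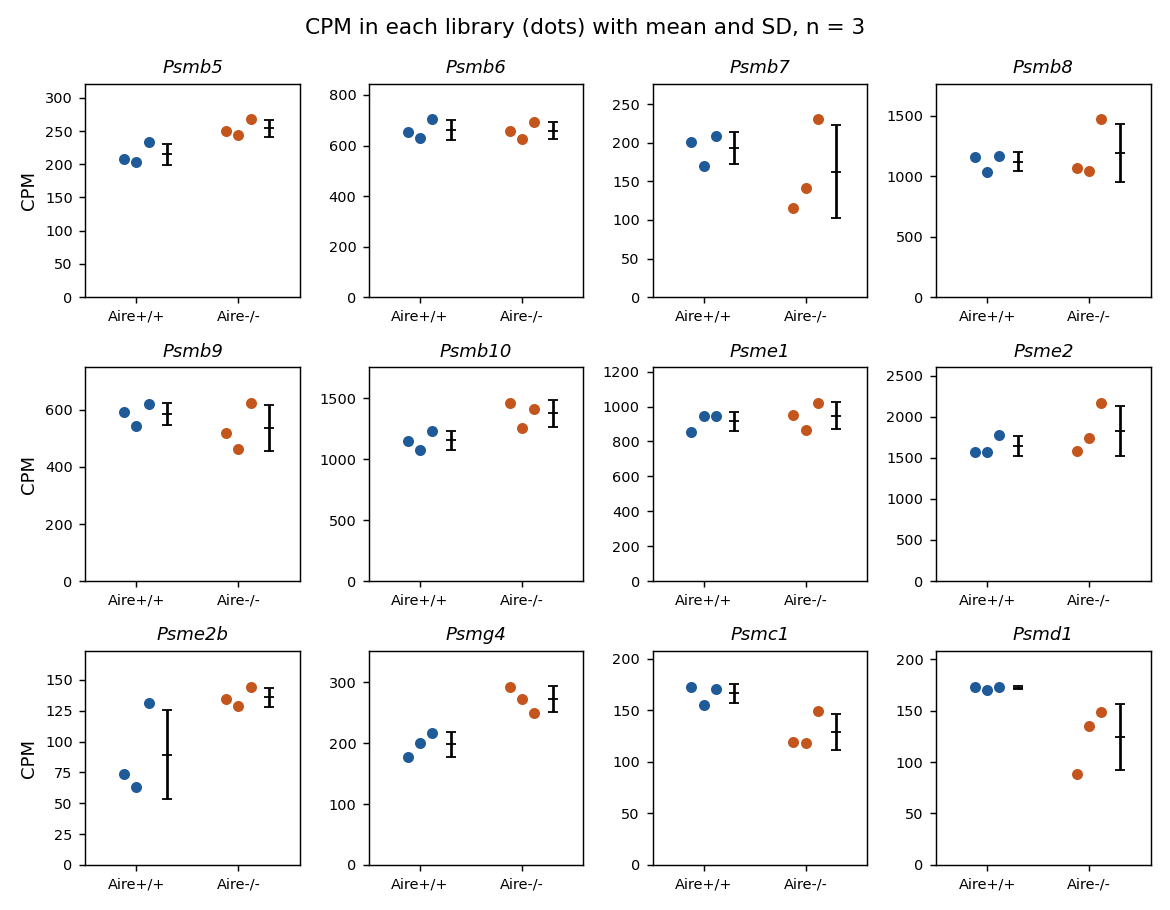
CPM (y axis, from 0) of the cutting subunits, activator genes and other named members, with 1 dot per library (745, 750, 753 and 746, 748, 749 from left to right) and the mean ± SD beside them (n = 3). Psmg4 and Psmb5 do not overlap between genotypes, and Psmb7 runs from 116 to 230.5 CPM within Aire-/-.

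The balance of inducible and constitutive cutting subunits was read inside each library, where scaling has no part. Summed UMIs of Psmb8, Psmb9 and Psmb10 per UMI of Psmb5, Psmb6 and Psmb7 were 2.73, 2.65 and 2.64 in Aire+/+ and 2.97, 2.74 and 2.94 in Aire-/-. The groups separated by a hair, between 745 and 748, and the mean log2 ratio was higher by 0.11 in Aire-/-, with SDs of 0.028 and 0.066. Psmb10 per Psmb7 was 5.74, 6.33 and 5.91 in Aire+/+ against 12.6, 8.89 and 6.12 in Aire-/-. Here 746 and 748 lay above all Aire+/+ libraries and 749 among them. Psmb8 per Psmb5 overlapped, at 5.57, 5.08 and 5.01 against 4.28, 4.28 and 5.49. Psmb9 per Psmb6 overlapped as well, at 0.909, 0.868 and 0.884 against 0.787, 0.745 and 0.902.

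**Figure D3:**
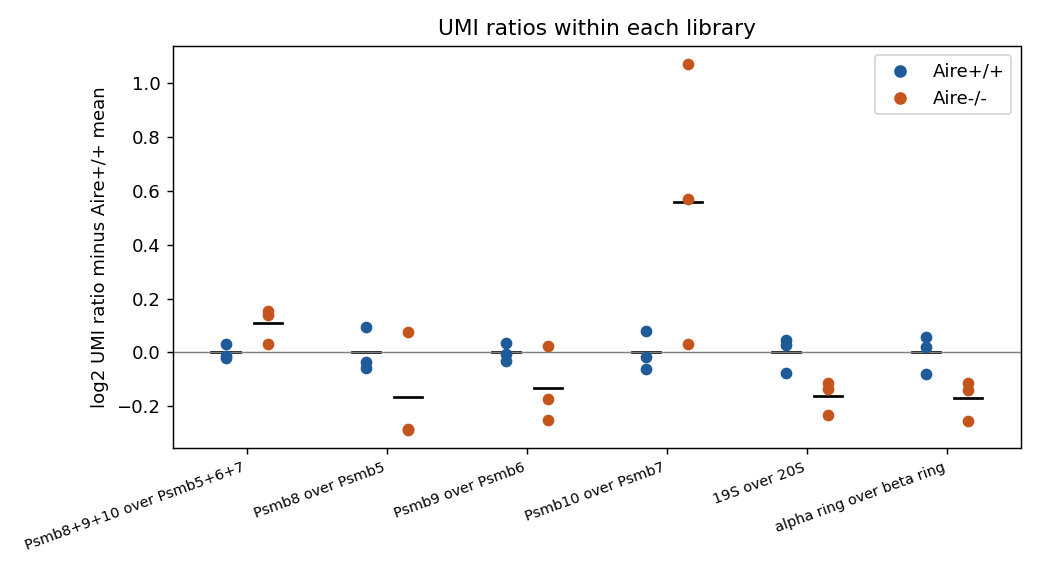
Log2 ratios of UMIs within each library, shown as the difference from the Aire+/+ mean (y axis), with 1 dot per library and a bar at each group mean (n = 3). The Aire-/- libraries lie lower for cap (19S) over core (20S) genes (mean difference -0.16), and Psmb10 over Psmb7 is spread widest among them. The cap over core ratio was not planned before the data were seen.

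The ATPases form the ring that unfolds substrates and opens the gate. Their 6 genes summed to 1178 ± 67.0 CPM in Aire+/+ and 1069 ± 61.5 CPM in Aire-/- (SD, n = 3). None was called (2 at an unadjusted p under 0.05 by edgeR, 0 by DESeq2), and the median log2 fold change was -0.19. Psmc1 was at 173, 155 and 171 CPM in Aire+/+ and at 119, 118 and 149 CPM in Aire-/-. The groups did not overlap, and the log2 fold change was -0.36 ± 0.14 (SE, edgeR adjusted p = 0.0872). That adjusted p became 0.0192 without 749, 0.0494 with upper quartile scaling and 0.00922 with library totals. Psmc2 did not overlap either, at 214, 191 and 220.2 CPM against 170.4, 157 and 183 (log2 difference -0.30, edgeR adjusted p = 0.137). Psmc3, the highest of the ring by fold change, was at 268, 255 and 263 CPM against 262, 273 and 266. Its log2 difference was 0.028 with an interval of -0.23 to 0.28 (edgeR adjusted p = 0.9). The sign turned with library totals (-0.17) and upper quartile scaling (-0.032), and the last 107 bases overlap Slc39a13 on the other strand.

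The other cap subunits include scaffolds, ubiquitin receptors and the deubiquitinase Psmd14, which cuts ubiquitin chains off substrates. Their 11 genes summed to 1648, 1666 and 1691 CPM in Aire+/+ and 1487, 1554 and 1529 in Aire-/-. These sums did not overlap, and the log2 ratio of the means was -0.13. None of the 11 was called (3 at an unadjusted p under 0.05 by edgeR, 0 by DESeq2). Of the 11, 9 had a negative fold change, beside 6203 of all 11956 tested genes. Psmd4, a ubiquitin receptor, was at 281, 275 and 278 CPM against 278, 289 and 273. Psmd8, a lid subunit with the most positive value, was at 183, 224 and 237 CPM against 226, 239.9 and 185 (edgeR adjusted p = 0.968). Its log2 fold change of 0.012 turned sign with library totals (-0.18) and upper quartile scaling (-0.048).

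Psmd1, a scaffold at the base of the cap, had the most negative value of this group. It was at 173, 170.5 and 173 CPM in Aire+/+ and at 88.3, 136 and 149 CPM in Aire-/-. Every Aire-/- library was below every Aire+/+ library, and 746 was the lowest. The log2 fold change was -0.45 ± 0.17 (SE, edgeR adjusted p = 0.0813), and -0.59 without 749 (edgeR adjusted p = 0.0175), while without 746 it was -0.27 (edgeR adjusted p = 0.179). The lid subunits Psmd6, Psmd7 and Psmd12 were also lower without overlap, with log2 differences of -0.27, -0.30 and -0.32 and adjusted p of 0.185, 0.135 and 0.142 (edgeR). Psmd14 was uneven within Aire-/-, at 59.5, 83.4 and 119 CPM, against 111, 89.9 and 124 in Aire+/+.

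Cap and core genes were also compared inside each library. The cap subunits, ATPases included, summed to 0.657, 0.664 and 0.611 UMIs per UMI of the alpha and beta rings in Aire+/+ and to 0.585, 0.595 and 0.548 in Aire-/-. The groups did not overlap, and the mean log2 ratio differed by -0.16, with SDs of 0.065 and 0.063. Summed UMIs of the alpha ring per UMI of the beta ring were 0.492, 0.448 and 0.479 against 0.396, 0.437 and 0.429. These did not overlap either, a difference of -0.17 on the log2 scale. Neither ratio was planned before the data were seen. These ratios are descriptions over members and carry no test.

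The activators bind the ends of the core in place of the cap, and Psmf1 encodes an inhibitor of the core. None of these 6 genes was called (1 at an unadjusted p under 0.05 by edgeR, 0 by DESeq2). Psme1 and Psme2 encode the subunits of an interferon-inducible activator that favours peptides for MHC class I. Psme1 was at 854, 945 and 947 CPM in Aire+/+ and 954, 868 and 1020 in Aire-/-. The groups overlapped, and the log2 fold change was 0.049 with a 95% interval of -0.23 to 0.33 (edgeR adjusted p = 0.837). Psme2 was at 1573, 1567 and 1783 CPM against 1581, 1736 and 2167. The groups overlapped, 749 was the highest, and the log2 fold change was 0.16 (interval -0.16 to 0.48, edgeR adjusted p = 0.514). Both signs turned with library totals (-0.15 for Psme1 and -0.043 for Psme2). Psme4, a large single-chain activator, was at 35.1, 28.1 and 34.2 CPM against 13.3, 19.4 and 34.8. As with Psmb7, 746 and 748 were low and 749 was not. Its log2 difference of -0.48 (edgeR adjusted p = 0.255) became -0.93 without 749 (edgeR adjusted p = 0.0127). Psme3, a nuclear activator subunit, had a log2 difference of 0.19 (edgeR adjusted p = 0.454), and Psmf1, with 10 to 41 UMIs in each library, of -0.45 (edgeR adjusted p = 0.371).

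Psme2b, a copy of Psme2 at chromosome 11, 48945354 to 48946190 (mm10, minus strand), had the most positive fold change of the members. It was at 73.8, 63.4 and 131 CPM in Aire+/+ and at 134, 129 and 144 CPM in Aire-/-. Library 753 stood with the Aire-/- group, so the groups overlapped. The log2 fold change was 0.61 ± 0.23 (SE, edgeR adjusted p = 0.0806), and 0.98 without 753 (edgeR adjusted p = 0.00205). Gm12185, on the same strand, overlaps the 3′ end of Psme2b, and what this did to the counts was not tested. Over 299 of its last bases Psme2b is 98.997% identical to Psme2, so reads may have been divided between them. Summed, the pair had 5021, 4934 and 5701 UMIs against 1671, 3468 and 3780 and a log2 difference of 0.18 (edgeR adjusted p = 0.436).

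Assembly chaperones help the rings and the cap base to form and leave before the proteasome works. Of the 6, 1 was called. Psmg4, which pairs with the product of Psmg3 during alpha ring assembly, had 540, 606 and 646 UMIs in Aire+/+ and 285, 508 and 409 in Aire-/-. Scaled, these were 177, 200.2 and 217 CPM and 293, 273 and 250.03 CPM, and all Aire-/- libraries lay above all Aire+/+ libraries. Psmg4 rose by a log2 fold change of 0.46 ± 0.13 (SE), with a 95% interval of 0.17 to 0.74 (edgeR adjusted p = 0.0265). In the authors' deposited table its log2 fold change of Aire+/+ over Aire-/- was -0.46 with an adjusted p of 0.0292, and Psmg4 was the 1 member at or under 0.05 there, beside 15.1% of all genes. The sign was positive under all 14 alternative settings and the call held under 8. It was lost with upper quartile scaling (adjusted p = 0.0502), with library totals (0.178), without 745 (0.139), without 750 (0.0803), without 748 (0.0718) and without 753 and 746 together (0.0665), all by edgeR. Its partner Psmg3 was at 71.8, 79.3 and 83.9 CPM against 66.7, 71.0 and 93.5, a log2 difference of -0.014. Psmg2, the lowest chaperone by fold change, was at 88.6, 81.3 and 86.6 CPM against 56.5, 73.2 and 86.2 (log2 difference -0.23, edgeR adjusted p = 0.365). Psmg1, its partner, was at -0.23 (edgeR adjusted p = 0.467), and the cap base chaperones Psmd5 and Psmd10 at -0.14 and -0.12.

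The promoter of Psmg4 is shown because it belongs to the one called proteasome gene, and that of Psme1 because it holds the same motif. Both run from 250 bases before to 50 after the gene start, 5′ to 3′ on the gene's strand, from RefSeq (GRCm38.p6). Capitals mark the interferon-stimulated response element motif on either strand: TTTC, any 2 bases, TTTC. The window of Psmg4 is chr13:34162714-34163013 (plus strand) and that of Psme1 is chr14:55578244-55578543 (plus strand).
Psmg4: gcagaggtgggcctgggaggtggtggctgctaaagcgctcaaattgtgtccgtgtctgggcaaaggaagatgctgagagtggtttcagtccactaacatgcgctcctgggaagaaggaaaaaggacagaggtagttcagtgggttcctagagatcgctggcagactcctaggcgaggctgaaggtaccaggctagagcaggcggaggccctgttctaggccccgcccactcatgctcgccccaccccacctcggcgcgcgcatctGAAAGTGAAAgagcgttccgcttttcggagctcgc
Psme1: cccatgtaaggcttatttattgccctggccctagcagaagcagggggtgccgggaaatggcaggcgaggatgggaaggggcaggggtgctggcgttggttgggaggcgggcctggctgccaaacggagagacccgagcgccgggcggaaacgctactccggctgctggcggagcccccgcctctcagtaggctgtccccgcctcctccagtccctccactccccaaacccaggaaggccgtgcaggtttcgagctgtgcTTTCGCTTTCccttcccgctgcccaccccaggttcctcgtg
Of the 37 members with a promoter in the RefSeq table, 4 held this motif (Psmb3, Psmd4, Psme1 and Psmg4). That is 10.8%, beside 3.99% of all 27025 genes with a promoter. A gene with several promoters was counted if any of them held the motif. Psmb3, Psmd4 and Psme1 had log2 fold changes of 0.031, 0.010 and 0.049. CCAAT, the NF-Y box, was in 13 of 37 (35.1% beside 41.1%). TGANTCAGC, a pattern used here for the antioxidant response element, was in 1, Psmb5 (2.70% beside 1.37%). Its match reads TGAATCAGC and lies at the very end of the window, after the gene start. TTCNNNGAA, a gamma-activated site motif, was in 2, Psmd2 and Psmg1 (5.41% beside 9.55%). Both strands were searched, overlaps between motifs were allowed, and a match of letters is not a binding site.

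Psmc3ip, the member that is no proteasome gene, fell. It was at 79.0, 82.9 and 81.2 CPM in Aire+/+ and at 54.4, 59.7 and 58.7 CPM in Aire-/-, without overlap and with little spread in either group. The log2 fold change was -0.49 ± 0.14 (SE, edgeR adjusted p = 0.0239), and the adjusted p in the authors' deposited table was 0.0908. The gene spans chromosome 11, 101091823 to 101095436 (mm10, minus strand), and all of its last 300 bases overlap Mlx, a transcription factor gene on the plus strand. Without the strand setting, reads of the pair cannot be told apart. Mlx was at 40.6 ± 5.41 and 43.3 ± 4.90 CPM (log2 difference 0.10, edgeR adjusted p = 0.735), and the pair summed had a log2 difference of -0.26 (edgeR adjusted p = 0.187). Adding Mlx, which did not fall, weakens the difference whatever the strand setting, so this sum does not test the call. The Psmc3ip call was lost without 745, 750, 753 or 748 (adjusted p = 0.064, 0.0768, 0.0823 and 0.0615 by edgeR), without 753 and 746 together (0.112) and with DESeq2 (0.0909). Its promoter, chr11:101095386-101095685 (GRCm38.p6, minus strand), is shown as that of the other called member, with the CCAAT box in capitals.
Psmc3ip: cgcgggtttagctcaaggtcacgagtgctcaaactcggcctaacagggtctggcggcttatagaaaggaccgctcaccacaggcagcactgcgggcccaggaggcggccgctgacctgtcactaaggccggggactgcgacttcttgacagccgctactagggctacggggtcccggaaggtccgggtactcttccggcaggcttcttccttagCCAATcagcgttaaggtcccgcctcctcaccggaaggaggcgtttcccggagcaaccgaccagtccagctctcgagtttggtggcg

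The members varied less between libraries of a genotype than the typical gene, in a comparison not matched for expression level. The median coefficient of variation over the 44 genes was 7.46% in Aire+/+ and 13.4% in Aire-/-, beside 13.5% and 22.7% over all tested genes. It was highest for Psme2b in Aire+/+ (40.7%) and for Psme4 in Aire-/- (49.3%), and lowest for Psmd1 (0.86%) and Psmc3 (2.17%). Relative to the Aire+/+ mean, the median member stood at -0.21 in 746, -0.14 in 748 and 0.034 in 749 on the log2 scale, and at 0.011, -0.070 and 0.072 in 745, 750 and 753. Of the 44 genes, 27 (61.4%) were highest of their genotype in 749, beside 35.9% of all tested genes. In Aire+/+, 25 (56.8%) were highest in 753, beside 33.9% of all tested genes, and 28 (63.6%) were lowest in 750, beside 34.3%. Without 749, 7 members were called lower (Psma4, Psmb7, Psmc1, Psmc3ip, Psmd1, Psmd14 and Psme4). That is 15.9% of the members, beside 14.5% of all genes tested without 749 (1899), and the members' median was -0.17. Library 749 also had the highest summed dendritic cell and macrophage markers, with Lyz2 giving 2121 of the 2396 CPM. Markers of the sorted cells went both ways in 749. The sum over all 10 was the highest of any library there (78628 CPM), as were Aire, Cd74, H2-Aa, Cd80 and Cd86. H2-Ab1, Epcam and Fezf2 were neither highest nor lowest in 749. It was the lowest library for 2 of these markers. Krt5 was at 684 CPM there against 1430 to 1719 in the other libraries, and Krt14 at 588 against 935 to 1133. The part of any of these markers in the result was not tested. Without 753 and 746, the libraries low in Gapdh, 0 members were called lower and 1 higher (Psme2b), beside 9.67% and 5.36% of all genes tested then.

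**Figure D4:**
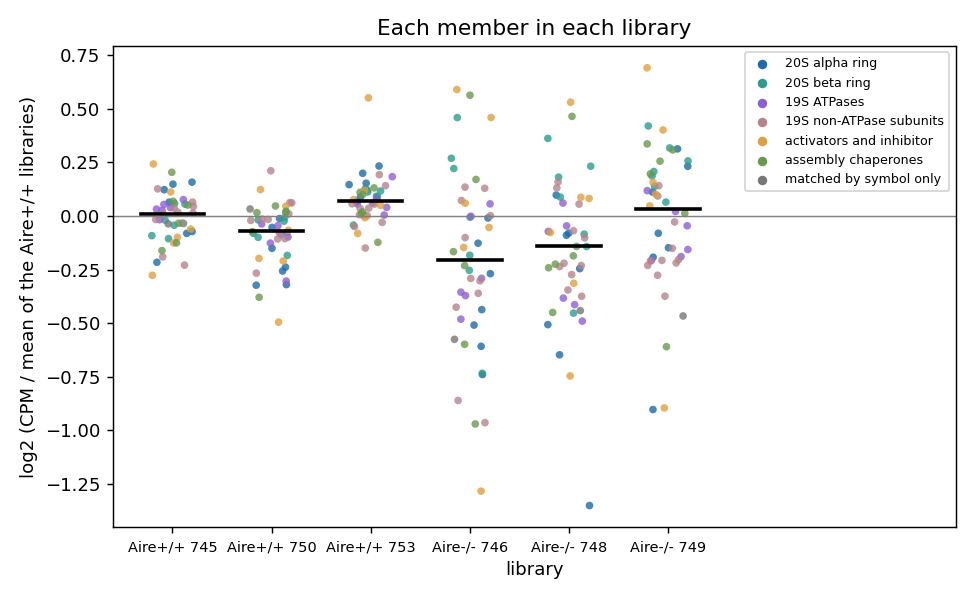
Log2 ratio of each of the 44 genes' CPM to the mean of the Aire+/+ libraries (y axis) in each library (x axis), coloured by role, with a bar at the median. The medians of 746 (-0.21) and 748 (-0.14) lie below 0, and that of 749 (0.034) lies with the Aire+/+ libraries.

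The members lie on 16 chromosomes, with at most 10 on one of them (chromosome 11). Psmb5 and Psmb11 lie 3410 bases apart on chromosome 14, and Psme1 and Psme2 lie 5911 bases apart on the same chromosome.

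Other genes of the pathway were taken as lists, and their counts stand beside the 20.7% of all tested genes called. Among 8 ubiquitin and ubiquitin-activating genes 1 rose and 1 fell. Ubb, a stress-inducible polyubiquitin gene, was at 310.3, 340.3 and 346 CPM in Aire+/+ and 665, 506 and 629.7 in Aire-/-. The groups did not overlap, and on the log2 scale Ubb rose by 0.85 ± 0.14 (SE, edgeR adjusted p = 0.000687), a call made under all 14 alternative settings. Uba1, the main ubiquitin-activating enzyme, was at 346, 355 and 332 CPM against 218, 265 and 281 and fell, with a log2 difference of -0.43 (edgeR adjusted p = 0.0348). That call was lost without any 1 of 745, 750, 753, 746 or 748 (adjusted p between 0.0796 and 0.113 by edgeR). It held under 8 of the 14 alternative settings, and the highest adjusted p among them all was 0.126 (edgeR). Of the subunit and chaperone genes not named Psm, 3 were tested (Adrm1, Sem1 and Pomp) and 0 were called (0 at an unadjusted p under 0.05 by edgeR, 0 by DESeq2). Of 10 tested enzymes and shuttles that bind the proteasome 0 were called (1 at an unadjusted p under 0.05 by edgeR, 0 by DESeq2), with a median of -0.22. Of 10 regulators of proteasome genes and their processing factors 0 were called (2 at an unadjusted p under 0.05 by edgeR, 0 by DESeq2). A positive fold change was found for 9 of them, beside 5753 of all 11956 tested genes. Nfe2l1, a transcription factor that raises proteasome genes, was among them at 189, 211 and 192 CPM against 295, 272 and 219 (log2 difference 0.40, edgeR adjusted p = 0.0589). Nfya had a larger log2 difference of 0.72 (edgeR adjusted p = 0.0703). Nfe2l2 went the other way without overlap, with a log2 difference of -0.32 (edgeR adjusted p = 0.295). Any part of these regulators in the member values was not tested. Of 9 class I peptide-loading genes 0 were called (2 at an unadjusted p under 0.05 by edgeR, 0 by DESeq2), with a median of 0.17.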

How the data were processed

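Sorted mTEChi of 3 Aire+/+ and 3 Aire-/- NOD libraries were profiled by MARS-seq, per the labels' protocols. Tools listed without roles in the submitters' processing notes are STAR 2.4.2a, HTSeq, DESeq2, cutadapt and bcl2fastq, with the build mm10. Not given in the sources used here are the annotation, how UMIs were collapsed and whether counting used strand. The deposited table holds raw UMI counts per gene beside the authors' log2 fold changes, p-values and adjusted p-values, per the file headers. Its 12 normalized or regularized columns were not used. The members and lists were chosen with earlier results of these data known.

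Counts were tested with edgeR 4.0.16 in R 4.3.3 (glmQLFit and glmQLFTest, TMM scaling, a genotype term alone, genes kept by filterByExpr at min.count 10, Benjamini-Hochberg adjustment over 11956 genes, threshold 0.05). CPM are TMM-scaled. Standard errors and 95% intervals are approximate, worked back from each fold change and the F statistic of the quasi-likelihood test. In the shallowest library 3 UMIs are 2.96 CPM, which limits the rarer members. Replicates differed by more than sampling noise (chi-square per degree of freedom 3.04 to 6.97). Alternatives were other scalings, DESeq2 1.42.0, other filters, left-out libraries and, chosen after seeing the data, counts summed over genes with shared 3′ ends. Genes named with full values were the called members, Psmb5 to Psmb11, Psme1, Psme2, the lowest and highest fold change of each role and the called pathway genes. Others were named after their values were seen. Of the ratios within libraries, only that of summed inducible to summed constitutive cutting subunits was planned. The last 300 bases of each member's longest coding transcript were searched with blastn 2.17.0 against all transcripts (at least 80 bases at 90% identity). Another gene matched for 14 of the 44 members, and for 6 of them it was a gene in the deposited table. Psma5, Psmb1, Psmb3, Psmb5, Psmb6, Psmd1, Psmd2 and Psme1 matched only genes outside that table. Psmd1, for one, was identical to Gm21972 over 231 bases. What these matches did to the counts was not tested.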

Additional observations from a re-analysis of the deposited data

How the results depend on the processing

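No paired analysis was possible because the library numbers differ between the genotypes. Members called lower (1) were 11 with library totals, 2 with upper quartile factors, 0 with DESeq2, 0 with shared 3′ ends summed, 0 without 753 and 746 together, and 0 to 7 without single libraries. Members called higher (1) were 0 with library totals, 0 with upper quartile factors and 0 to 2 without single libraries. All genes called lower (1450, 12.1%) were 2048 with library totals (17.1%), 1565 with upper quartile factors (13.1%), 1531 with DESeq2 (9.79%), 1449 with shared 3′ ends summed (12.1%), 1177 without 753 and 746 (9.67%), and 1098 to 1899 without single libraries, the highest without 749 (14.5%). With other filters they were 2113 at min.count 3 (14.2%) and 2142 with no filter (13.7%). All genes called higher (1027) were 567 with library totals, 652 without 753 and 746, and 618 to 1156 without single libraries, the lowest without 753. The members' median (-0.075) was -0.27 with library totals, 0.0077 without 753 and 746, and -0.17 to -0.052 without single libraries. The median of all tested genes (-0.023) was -0.22 with library totals, -0.014 with DESeq2 size factors, -0.081 with upper quartile factors, -0.10 with DESeq2, -0.067 with min.count 3, -0.093 with no filter, and -0.055 to -0.019 without single libraries. With library totals the log2 ratio of summed CPM was -0.29 for the alpha ring, -0.12 for the beta ring, -0.34 for the ATPases, -0.33 for the other cap subunits, -0.066 for the activators and inhibitor, -0.062 for the chaperones and -0.18 for all members. For the other cap subunits it was -0.19 with upper quartile factors and -0.10 without 753 and 746. The cause was not tested.

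Signs turned for some uncalled genes near 0. With library totals the log2 fold changes were -0.12 for Psma6, -0.11 for Psmb8, -0.17 for Psmc3, -0.18 for Psmd8, -0.15 for Psme1 and -0.043 for Psme2, and with upper quartile factors -0.032 for Psmc3, -0.048 for Psmd8 and -0.011 for Psme1. Psmb6 was 0.0028 with DESeq2 size factors, 0.0026 with DESeq2, 0.0041 with min.count 3, 0.0089 with no filter and 0.034 without 753 and 746. Without single libraries the ranges were -0.049 to 0.17 for Psma6, -0.045 to 0.037 for Psmb6, -0.083 to 0.19 for Psmb8, -0.096 to 0.12 for Psmd8 and -0.0062 to 0.12 for Psme1. Over the 23 named genes, 263 values kept direction and side of the threshold, 23 lost the call, 11 gained one and 24 changed sign.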
